A study of Mus musculus with 24 samples.

Results

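Loss of the microRNA miR-142 in normal blood stem and progenitor cells was described by comparing LSKs from 6 miR-142 KO mice with LSKs from 6 WT mice. LSKs (lineage-negative, Sca-1+, c-Kit+ bone marrow cells) are the sorted marrow fraction that holds blood stem cells and multipotent progenitors. The 12 libraries, of 24 in the series, were those of mice without BCR-ABL, and every gene in the count table was a member of the comparison. The series concerns miR-142 in a mouse model of chronic myeloid leukemia (CML), and its other 12 libraries came from mice that expressed BCR-ABL and either carried miR-142 (CP CML) or lacked it (BC CML). Each of the 4 groups held 3 females and 3 males, with 1 library per mouse, so that the replicates were separate animals. WT mice had an intact miR-142 gene and miR-142 KO mice lacked it from the germ line, that is, in every tissue, and so an effect inside LSKs and an effect of a marrow without miR-142 cannot be told apart. Mice of both genotypes were of the B6 background, neither carried BCR-ABL, and their ages were not given in the sources used here.

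MicroRNAs pair through a short seed near their 5′ end with sites in the 3′ untranslated region (3′ UTR) of mRNAs and lower the level or the translation of those mRNAs. miR-142 is made in blood cells of all lineages, and both strands of its hairpin become mature microRNAs. LSKs already transcribe low levels of genes of the lineages they can form, which is called lineage priming, and hold to the marrow through integrins, selectin ligands and chemoattractant receptors.

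The mature strands are shown because their seeds set the sites that were looked for in the mRNAs. The sequences are from RefSeq (mm10), 5′ to 3′, with the seed (bases 2 to 8) in capitals.
mmu-miR-142a-3p: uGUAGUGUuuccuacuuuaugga
mmu-miR-142a-5p: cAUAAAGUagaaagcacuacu
The 2 seeds differ, so the strands address different sites. Both strands lie in the Mir142 hairpin on chromosome 11 (mm10, 87756864 to 87756927, plus strand), the 3p strand at 87756903 to 87756925 and the 5p strand at 87756867 to 87756887.

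The targeted gene was examined first. In WT LSKs, Mir142 was covered by 94 to 127 counts per library, and no read was counted to it in any of the 6 miR-142 KO mice. Because the libraries were made from polyadenylated RNA, these counts are reads of the longer precursor transcript. A library with 0 counts could still hold up to 3 by counting error alone (other errors are not covered), and against this limit the loss was at least 35.8-fold. Mir142b, annotated on the other strand over the same hairpin (87756841 to 87756955), also had 0 counts in every miR-142 KO library, and without a stated strand setting its reads cannot be told apart from those of Mir142. Tspoap1, which encodes a synaptic scaffold protein of the RIM-BP family, starts 3.61 kb beyond the hairpin on the same strand. Its lowest, median and highest levels among the 6 mice were 19.3, 24.01 and 37.1 CPM (counts scaled to a library of 1000000) in WT LSKs and 3740, 4830 and 5762 CPM in miR-142 KO LSKs, with a log2 fold change of 7.55 ± 0.19 (SE) and an edgeR adjusted p of 2.66e-19. Apart from Mir142 and Mir142b, no other tested gene within 200 kb had a change of that size. Of the tested neighbours, Supt4a, an elongation factor subunit, fell by 0.38 on the log2 scale (edgeR adjusted p = 0.00296). The neutrophil enzyme gene Mpo rose and is described with its lineage. Sept4, Mtmr4, Rnf43, 1110028F11Rik, Mks1 and Epx did not pass the threshold, with log2 fold changes of −0.35, −0.11, 0.76, 0.59, 0.013 and 0.94.

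Library totals were 21665505 to 23823500 counts in WT and 22595352 to 24111549 counts in miR-142 KO LSKs, so that depth did not separate the groups. Of 24091 genes, 13520 passed the filter on low counts and were tested in edgeR with all 24 libraries in 1 fit; 2685 (19.9%) had a higher and 2222 (16.4%) a lower level with the gene deleted at an adjusted p below 0.05, which is the meaning of "rose" and "fell" in what follows. The median log2 fold change of all tested genes was 0.0054. Scaling by the upper quartile in place of TMM lowered that median to −0.045 and turned the split of calls from 54.7% higher to 42.0% higher, so that small changes (below about 0.1 on the log2 scale) carry no direction. The 6 and 6 values did not overlap for 5.59% of tested genes on the higher side and for 8.73% on the lower side. Overlap and levels rest on CPM of the raw library total, whereas fold changes use TMM factors. These were 1.026 to 1.059 in WT and 0.961 to 1.018 in miR-142 KO libraries. Raw levels thus set miR-142 KO LSKs slightly lower against WT than the fold changes do, which favours the lower side. Mcm2, for example, had 342 and 334 CPM in WT and miR-142 KO LSKs with a log2 fold change of 0.037. Levels of sex-linked genes matched the labelled sex in all 12 mice. Libraries that stood apart were WT female 3, with the highest sum of macrophage markers, and miR-142 KO female 3, with the lowest. In bulk RNA, more cells of a kind and more RNA per cell cannot be told apart, which applies to every level below.

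A larger share of the genes with a site for the 3p seed rose in miR-142 KO LSKs than of the genes without one. A 3′ UTR was found for 12607 of the 13520 tested genes (93.3%; GENCODE vM21, the protein-coding transcript with the longest 3′ UTR of each gene). The 7-base complement of the 3p seed, ACACTAC, occurred in 873 of these 3′ UTRs (6.92%), and 308 of the 873 genes rose (35.3%) while 103 fell (11.8%). Among the 10004 genes with neither site, 20.1% rose and 16.6% fell. The median log2 fold change was 0.087 with a 3p site, 0.013 without either site and 0.23 in the 74 genes with at least 2 copies, of which 45.9% rose. The complement of the 5p seed, ACTTTAT, was in the 3′ UTR of 1987 genes, of which 19.4% rose and 17.9% fell, with a median of −0.0066. A longer 3′ UTR holds more 7-base words of any kind, so the counts were repeated in 3 classes of equal size by 3′ UTR length: 46.8% of genes with a 3p site rose in the short, 39.7% in the middle and 32.1% in the long class, against 21.8%, 19.4% and 17.8% of the genes without one. Under upper quartile scaling 262 of the 873 genes rose, and their median was 0.036. A site here is a match of letters on the sense strand of the 3′ UTR and not a measured binding event.

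Of 22 genes that have been described as miR-142 targets, 13 rose, 1 fell and 8 did not pass the threshold, where 19.9% of all tested genes rose and 16.4% fell (median log2 fold change 0.35). The 3p sites of the 4 described targets with the lowest p-values are shown in their 3′ UTR (mm10, sense strand, with 15 bases before the site and 1 after it, and the site in capitals), because the groups do not overlap for these genes.
Itgav, chr2:83803764-83803786 (+): gaacaggtacacattACACTACa
Bod1, chr11:31665636-31665658 (−): gtgtgaccctagtagACACTACa
Cfl2 first site, chr12:54860463-54860485 (−): tttcccgatgagtgtACACTACt
Cfl2 second site, chr12:54860423-54860445 (−): catatgagtcttgaaACACTACa
Twf1, chr15:94578191-94578213 (−): gctctgaagcctagtACACTACa
The 5 windows were chosen by the 7 capital letters and so share them by construction. Of the 5, 4 have an a beside the site on its 3′ side, which was not compared with other sites.

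Itgav, the αV integrin subunit, had 41.2, 42.96 and 49.4 CPM in WT and 87.1, 87.97 and 91.3 CPM in miR-142 KO LSKs (lowest, median and highest of 6 mice, as in all triplets below). The groups lay far apart, with an SD of 1.59 CPM among miR-142 KO mice, and the log2 fold change was 1.08 ± 0.059 (adjusted p = 2.19e-12). Bod1, a regulator of chromosome biorientation, had 21.7, 21.9 and 26.1 CPM in WT and 42.7, 45.6 and 52.4 CPM in miR-142 KO LSKs, again without overlap (log2 fold change 1.10, adjusted p = 4.01e-12). Cfl2, an actin-severing cofilin with a pair of 3p sites, went from 38.3 ± 3.28 to 104 ± 6.04 CPM (SD, n = 6), the largest fold among the described targets with a 3p site, with a log2 fold change of 1.51 ± 0.10 (adjusted p = 9.52e-11). Twf1, which encodes an actin monomer binding protein, went from 56.6 ± 3.10 to 95.8 ± 12.8 CPM (adjusted p = 6.31e-09). Wasl (N-WASP, an activator of actin nucleation) rose by 0.84, Tgfbr1 (the type I TGF-beta receptor) by 0.73, Il6st (the shared receptor subunit gp130) by 0.74 and Rac1 (a small GTPase of the cytoskeleton) by 0.38 on the log2 scale, all with a 3p site. Ash1l, a histone methyltransferase with a pair of 3p sites, rose by 0.31. Mfn1, a mitochondrial fusion GTPase, rose by 0.24 and Prkca, protein kinase C alpha, by 0.49; their 3′ UTRs held 5p but no 3p sites. Msi2, an RNA-binding protein of stem cells, held a 3p site and fell, from 573 ± 103 to 344 ± 45.8 CPM (log2 fold change −0.67, adjusted p = 2.48e-05). Other described targets with a 3p site did not pass the threshold, with log2 fold changes between −0.16 and 0.0041. Cpt1a, the entry enzyme of mitochondrial fatty acid oxidation, held neither site and had 294 and 281 CPM (log2 fold change 0.0098, adjusted p = 0.941). Among all 22 described targets, 9 did not overlap between the groups on the higher side and 1 on the lower side. The shares of all tested genes were 5.59% and 8.73%. Il6st, Ash1l and Prkca rose with overlap. The panels show, mouse by mouse, only described targets without overlap.

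**Figure D1:**
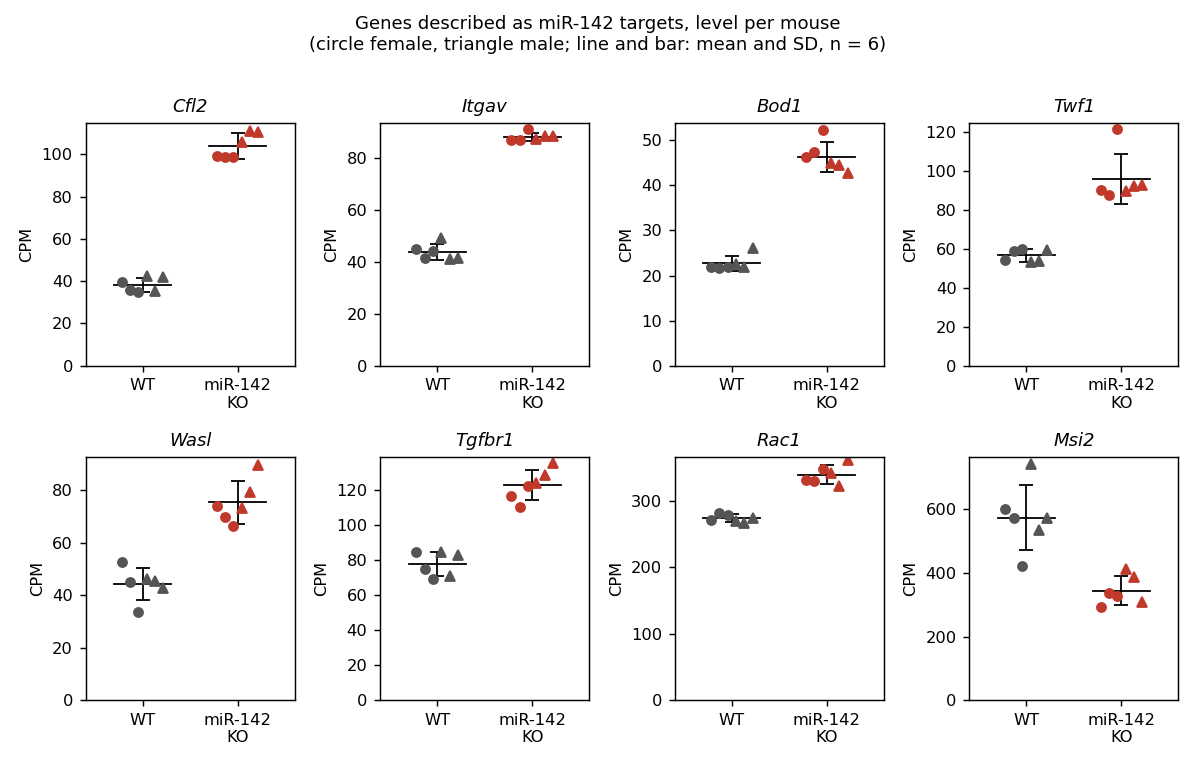
Level in CPM (y axis) of 8 genes described as miR-142 targets in each of 6 WT and 6 miR-142 KO mice; circles are females, triangles males, and the line and bar give the mean and SD. The groups do not overlap in any of the 8 panels, which leave out the described targets with overlap. Msi2 is lower in miR-142 KO LSKs and the other 7 genes are higher.

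Several of the genes that rose most had few or no reads in WT LSKs. Ctnna2, a neural α-catenin, had 0 counts in every WT library and 0.249 to 6.52 CPM in miR-142 KO LSKs, at least 16.9-fold higher when set against 3 counts per library. Moxd1, a monooxygenase-like gene, had 0 to 0.0462 CPM in WT and 0.821 to 6.48 CPM in miR-142 KO LSKs. Next to these low transcripts, Epas1, which encodes the hypoxia-inducible factor HIF-2α, rose from 2.52 ± 1.49 to 67.1 ± 56.9 CPM, Rnf128, an E3 ubiquitin ligase of anergic T cells, from 1.47 ± 1.003 to 35.7 ± 21.5 CPM and Igf2bp3, an RNA-binding protein of fetal tissues, from 0.613 ± 0.154 to 11.8 ± 6.13 CPM. Skida1 rose from 0.428 ± 0.227 to 8.10 ± 1.17 CPM and Flrt2, an adhesion protein that binds latrophilins, from 0.313 ± 0.197 to 10.5 ± 9.75 CPM. Cntn1, a contactin of the immunoglobulin superfamily, rose from 0.0975 ± 0.103 to 4.91 ± 5.08 CPM and Pcsk1, a prohormone convertase, from 0.267 ± 0.169 to 10.2 ± 9.09 CPM. The other 5 of the 15 genes with proper names that rose most, besides Tspoap1, were Tph1, Il2ra, Ccr8, Nmur1 and Klrg1, which are described with the lymphoid markers. By the rule that chose them, the lowest miR-142 KO value was above the highest WT value for all 15. The log2 fold change of Cntn1 was 5.66 and went to 6.27 without WT female 2 and to 5.02 without miR-142 KO female 2.

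For Epas1, Pcsk1, Flrt2, Cntn1, Moxd1, Ctnna2 and Rnf128, and for Tph1, Il2ra, Ccr8 and Nmur1 of the lymphoid markers, every miR-142 KO female was above every miR-142 KO male, a split seen after the values were examined. Epas1 had 102.6 to 128 CPM in the 3 females and 12.45 to 18.1 CPM in the 3 males, and the difference of its log2 fold change between sexes (−2.61, males minus females) did not pass in the quasi-likelihood test (adjusted p = 0.173) but did by the likelihood ratio test of edgeR (adjusted p = 0.0217). Females and males had 14.2 to 22.9 and 1.37 to 3.85 CPM for Pcsk1, 6.20 to 25.3 and 2.86 to 4.45 CPM for Flrt2, and 3.19 to 13.75 and 0.581 to 2.51 CPM for Cntn1. For Moxd1 they had 4.38 to 6.48 and 0.821 to 1.37 CPM and for Ctnna2 1.19 to 6.52 and 0.249 to 0.433 CPM. For these last 5 genes the edgeR adjusted p of the difference between sexes was 0.505 (Pcsk1) or higher.

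Among the 15 genes that fell most, besides Mir142, 3 were genes of plasma cells and the B lineage (Jchain, Pou2af1 and Mzb1) and 3 were genes of marrow macrophages (Cd5l, Fcna and Hmox1), both described with their lists. Irf4, a transcription factor of lymphocytes, fell from 11.5 ± 8.15 to 1.20 ± 0.577 CPM. Evc and Evc2, which encode partners in a complex of the primary cilium, fell from 1.93 ± 0.682 to 0.102 ± 0.0952 CPM and from 1.96 ± 0.413 to 0.0949 ± 0.105 CPM. Reln, a secreted matrix protein, fell from 3.31 ± 2.65 to 0.0721 ± 0.0528 CPM and St8sia1, a ganglioside sialyltransferase, from 10.7 ± 6.77 to 1.11 ± 0.586 CPM. Kcnd3, a potassium channel, fell from 2.24 ± 1.42 to 0.108 ± 0.0985 CPM, Edar, a receptor of the tumour necrosis factor family, from 2.51 ± 1.08 to 0.238 ± 0.233 CPM and Chp2, a calcineurin-like protein, from 2.03 ± 2.24 to 0.115 ± 0.0858 CPM. The log2 fold change of Chp2 went from −4.02 to −3.16 without WT female 3 and that of Evc2 from −4.24 to −4.82 without miR-142 KO female 2.

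Stem cell genes were lower in miR-142 KO LSKs, with exceptions. Of 19 genes of the stem cell identity list, 1 rose, 11 fell and 7 did not pass the threshold (median log2 fold change −0.55). Thus 5.26% rose and 57.9% fell, against 19.9% and 16.4% of all tested genes. Hlf, a transcription factor of long-term stem cells, had 321, 425 and 711 CPM in WT and 134, 198 and 233 CPM in miR-142 KO LSKs. All 6 miR-142 KO values were below the lowest WT value, and the log2 fold change was −1.26 ± 0.17 (adjusted p = 4.82e-06). Procr, the endothelial protein C receptor used to sort stem cells, had 13.5, 23.01 and 38.5 CPM in WT and 3.93, 6.22 and 9.91 CPM in miR-142 KO LSKs, also without overlap (log2 fold change −1.79 ± 0.24, adjusted p = 4.12e-06). Fgd5 and Robo4, a guanine nucleotide exchange factor and a guidance receptor that mark stem cells, fell by 1.38 and 1.30, Ndn, a growth suppressor, by 2.06 and Mllt3, a regulator of stem cell self-renewal, by 0.71 on the log2 scale. Slamf1 (CD150) was low in both groups, with 8.53 ± 1.35 and 5.98 ± 0.607 CPM, and fell with an adjusted p of 0.0182 that became 0.0517 without WT female 2. Mecom, a stem cell transcription factor, had 78.8 ± 20.1 and 76.1 ± 9.15 CPM (adjusted p = 0.913), and Hoxb5, another one, rose from 1.44 ± 0.450 to 3.47 ± 0.634 CPM (adjusted p = 0.000166).

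Neutrophil-primed transcripts were higher. Of 13 genes of the neutrophil priming list, 12 rose (92.3%) and 0 fell, where 19.9% of all tested genes rose and 16.4% fell. The median log2 fold change was 1.40. Ctsg, a serine protease of azurophil granules, had 78.5, 168 and 369.7 CPM in WT and 656, 756 and 822 CPM in miR-142 KO LSKs, without overlap (log2 fold change 2.04 ± 0.26, adjusted p = 1.68e-06). Elane, neutrophil elastase, had 37.1, 89.1 and 292 CPM in WT and 168, 619 and 791 CPM in miR-142 KO LSKs (log2 fold change 2.31 ± 0.37, adjusted p = 4.13e-05). The Elane ranges overlapped, since miR-142 KO female 3 had the lowest value of its group, below that of WT female 3, the highest WT value. The same mouse was the lowest miR-142 KO library for Mpo, myeloperoxidase, which had 1089, 1764 and 3887 CPM in WT and 1342, 4529 and 5123 CPM in miR-142 KO LSKs (log2 fold change 1.10 ± 0.28, adjusted p = 0.00328). Prtn3, proteinase 3, rose by 1.40, Ms4a3, a membrane protein of granulocyte-monocyte progenitors, by 2.15 and Hp, haptoglobin, by 2.62 on the log2 scale. The ranges for Ms4a3 and Hp did not overlap between the groups.

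Transcripts of later neutrophils were also higher. Of 15 tested genes of the mature neutrophil list, 9 rose (60%) and 0 fell, where 19.9% of all tested genes rose and 16.4% fell. The median was 1.73, and Ly6g did not pass the filter on low counts. Cxcr2, the receptor for neutrophil chemokines, had 4.18, 7.63 and 9.86 CPM in WT and 27.9, 33.95 and 35.2 CPM in miR-142 KO LSKs without overlap (log2 fold change 2.27 ± 0.18, adjusted p = 1.49e-09). S100a8 and S100a9, the subunits of calprotectin, rose from 5.97 ± 2.62 to 41.4 ± 28.1 CPM and from 7.34 ± 3.79 to 31.1 ± 22.3 CPM. Lcn2 and Camp, granule proteins of maturing neutrophils, rose from 1.43 ± 0.603 to 10.6 ± 5.34 CPM and from 0.523 ± 0.450 to 6.64 ± 4.99 CPM. Pglyrp1, a bactericidal granule protein, rose by 1.31 on the log2 scale. The summed level of the list was 137 to 292 CPM in WT and 210.2 to 450.0 CPM in miR-142 KO LSKs, with no gene of the list at 0 in all libraries; the part that more mature neutrophils in the sort had in the result was not tested. Of 19 monocyte and dendritic genes, 5 rose, 4 fell and 10 did not pass (median 0.39). With all mice the shares were 26.3% and 21.05%, against 19.9% and 16.4% of all tested genes. Without WT female 3, which stands apart, 8 rose and 2 fell, and without both mice that stand apart 10 rose and 2 fell. F13a1, a transglutaminase of monocytes, rose from 93.4 ± 70.7 to 331 ± 141 CPM (adjusted p = 0.000557), Ctss, the cathepsin of antigen processing, fell from 62.5 ± 20.6 to 29.1 ± 10.9 CPM (adjusted p = 0.00129) and the transcription factor Irf8 had 155 ± 92.4 and 154 ± 74.5 CPM (adjusted p = 0.922). Csf1r, the receptor for the macrophage growth factor, had a log2 fold change of 0.55 that did not pass (adjusted p = 0.182).

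Megakaryocyte and platelet genes were higher, and most erythroid genes did not pass the threshold. Of 19 tested genes of the megakaryocyte list, 12 rose (63.2%) and 0 fell (median 0.81), where 19.9% of all tested genes rose and 16.4% fell. Itga2b (CD41), the platelet integrin subunit, had 105, 124 and 157 CPM in WT and 171, 236 and 327 CPM in miR-142 KO LSKs. Every miR-142 KO mouse was above every WT mouse, with a log2 fold change of 0.995 ± 0.15 (adjusted p = 1.17e-05). Its partner Itgb3 rose from 34.9 ± 9.63 to 112 ± 34.7 CPM (log2 fold change 1.74, adjusted p = 5.83e-07) and Selp, P-selectin, from 45.3 ± 23.5 to 165 ± 65.7 CPM (log2 fold change 1.93, adjusted p = 1.51e-05). Gp1ba, a subunit of the receptor for von Willebrand factor, rose by 1.39, Plek, a protein kinase C substrate of platelets, by 0.70 and the tetraspanin Cd9 by 0.77 on the log2 scale. Pf4, platelet factor 4, varied widely, with 10.1 to 27.2 CPM in WT and 3.40 to 96.3 CPM in miR-142 KO LSKs, and its adjusted p of 0.0126 became 0.0501 without miR-142 KO male 6. Vwf, von Willebrand factor, did not pass (log2 fold change 0.81, adjusted p = 0.0800). Of 19 tested erythroid genes, 0 rose and 2 fell (10.5%), with a median of −0.49, and 6 fell without miR-142 KO female 2. In females alone the median was −1.0 and 2 fell, and in males alone it was 0.097, with 2 that rose and 1 that fell. Car2, carbonic anhydrase 2, fell from 424 ± 75.7 to 178 ± 37.05 CPM (adjusted p = 2.82e-06). Gata1, Klf1 and Epor, regulators and receptor of red cell formation, had log2 fold changes of 0.46, −0.49 and −0.47 that did not pass.

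Mast cell and basophil genes were also higher, with 9 of 15 that rose (60%) and 0 that fell (median 1.42). Of all tested genes, 19.9% rose and 16.4% fell. Cpa3, the mast cell carboxypeptidase, had 47.4, 86.1 and 114 CPM in WT and 142.3, 267 and 500.3 CPM in miR-142 KO LSKs without overlap (log2 fold change 1.96 ± 0.29, adjusted p = 1.43e-05). Gata2, a transcription factor of stem and mast cells, rose from 211 ± 17.3 to 296 ± 66.04 CPM and Ms4a2, the β chain of the IgE receptor, from 37.5 ± 20.7 to 112 ± 75.1 CPM. Hdc, histidine decarboxylase, rose from 29.7 ± 15.4 to 76.5 ± 27.8 CPM. Mcpt8, a protease of basophils, ranged from 12.03 to 165 CPM in WT and from 31.9 to 655 CPM in miR-142 KO LSKs, and its adjusted p of 0.0319 was between 0.061 and 0.093 without WT female 1, WT male 4, miR-142 KO female 2 or miR-142 KO male 6. The list's summed level was 315 to 914 CPM in WT and 608 to 3616 CPM in miR-142 KO LSKs, and overlapped. Eosinophil genes varied widely among mice, with 1 of 6 that rose and 1 that fell (16.7% each), near the shares of all tested genes. Epx and Prg2, which encode a peroxidase and the major basic protein, spanned 9.67 to 382 and 32.5 to 1230 CPM in WT LSKs. Their log2 fold changes of 0.94 and 0.67 did not pass.

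Lymphoid-primed transcripts were lower. Of 14 genes of the lymphoid priming list, 9 fell, 1 rose and 4 did not pass (median −0.90). Thus 64.3% fell and 7.14% rose, against 16.4% and 19.9% of all tested genes. Flt3, the receptor tyrosine kinase of lymphoid-primed progenitors, had 786, 852 and 1086 CPM in WT and 205, 399.9 and 419 CPM in miR-142 KO LSKs. The highest miR-142 KO value lay below the lowest WT value, and the log2 fold change was −1.24 ± 0.15 (adjusted p = 9.16e-07). Dntt, terminal transferase, had 763, 957 and 1361 CPM in WT and 49.04, 233 and 340.3 CPM in miR-142 KO LSKs without overlap (log2 fold change −2.06 ± 0.31, adjusted p = 1.80e-05). Rag2, part of the V(D)J recombinase, fell by 1.56, Notch1, the receptor that sets T cell fate, by 1.33, Lax1, an adaptor of lymphocyte signalling, by 1.52 and Bcl11a, a transcription factor needed for lymphoid progenitors, by 0.57 on the log2 scale. Il7r, the interleukin 7 receptor, did not follow, with 53.5 ± 17.7 and 48.3 ± 28.1 CPM (adjusted p = 0.856), and the thymus homing receptor Ccr9 rose from 12.3 ± 5.57 to 38.9 ± 40.3 CPM (adjusted p = 0.00625), with a log2 fold change of 1.73 that was 1.08 without miR-142 KO female 2. MHC class II genes were mostly not past the threshold: 0 of 10 rose and 2 fell (median −0.36). The 20% that fell were near the share of all tested genes. H2-Ob, a modulator of peptide loading, was among those that fell, from 128 ± 17.3 to 45.9 ± 10.2 CPM (adjusted p = 9.85e-07). Cd74 and Ciita, the invariant chain and the class II transactivator, had log2 fold changes of −0.81 and −0.32 that did not pass.

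B lineage and plasma cell genes fell in 8 of 16 tested cases (50%) and rose in 0 (median −1.57), where 16.4% of all tested genes fell and 19.9% rose. Jchain, the joining chain of secreted antibodies, had 34.05, 366 and 942 CPM in WT and 0.865, 2.16 and 6.92 CPM in miR-142 KO LSKs. Its level spread widely among WT mice but did not overlap with that of miR-142 KO mice (log2 fold change −7.15 ± 0.83, adjusted p = 5.63e-07). Bank1, a B cell scaffold protein, fell from 7.71 ± 2.33 to 1.12 ± 0.416 CPM, Pou2af1, a B cell coactivator, from 11.2 ± 10.2 to 0.972 ± 0.610 CPM and Mzb1, a chaperone of antibody-secreting cells, from 6.19 ± 4.30 to 0.538 ± 0.238 CPM. Ebf1, the factor that commits cells to the B lineage, had 4.05 ± 2.61 and 3.22 ± 2.15 CPM and did not pass (adjusted p = 0.698). The summed level of the list was 104 to 1065 CPM in WT and 27.96 to 65.2 CPM in miR-142 KO LSKs, and the genes with the largest falls encode proteins of antibody-secreting cells; the part that fewer such cells in the sort had in the result was not tested. Of 17 tested T cell and NK cell genes, 10 rose (58.8%) and 3 fell (17.65%), with a median of 1.57. The share that fell was near that of all tested genes. Gata3, a transcription factor of T cells and innate lymphoid cells, rose from 20.2 ± 4.76 to 71.1 ± 45.05 CPM (log2 fold change 1.89, adjusted p = 1.49e-05) and Nkg7, a granule membrane protein of cytotoxic cells, from 65.1 ± 14.2 to 106 ± 9.48 CPM, while Lck, a T cell kinase, fell from 44.8 ± 10.5 to 16.02 ± 3.17 CPM (adjusted p = 2.08e-07) and Cd4 from 10.5 ± 5.32 to 4.05 ± 1.22 CPM. Cd3e, Cd3d and Cd8a, defining markers of T cells, were below the filter on low counts.

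**Figure D2:**
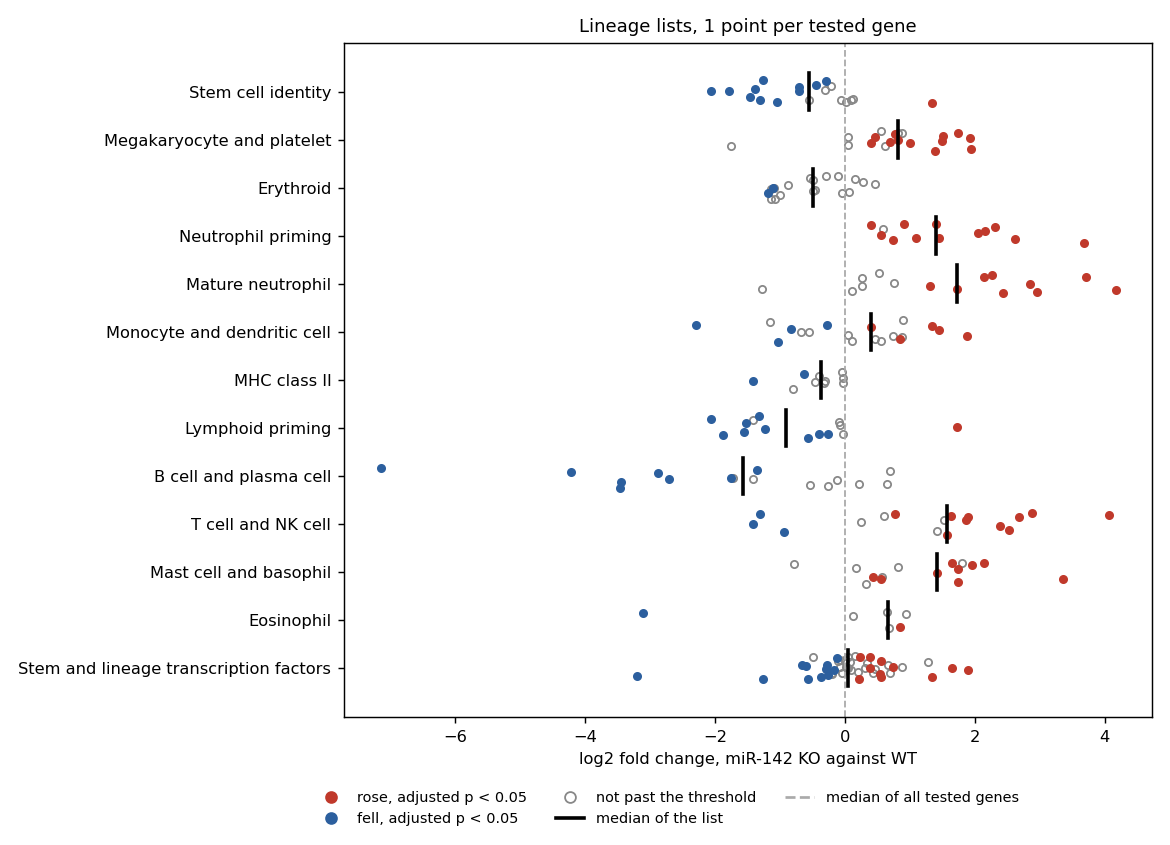
Log2 fold change (x axis) of every tested gene of each lineage list, 1 point per gene: filled points rose (red) or fell (blue) at an adjusted p below 0.05 and open points did not pass; the bar is the median of the list and the dashed line that of all tested genes. Medians lie above 1 for both neutrophil lists, the mast cell list and the T and NK list, and below −0.5 for the stem cell, lymphoid priming and B cell lists.

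**Figure D3:**
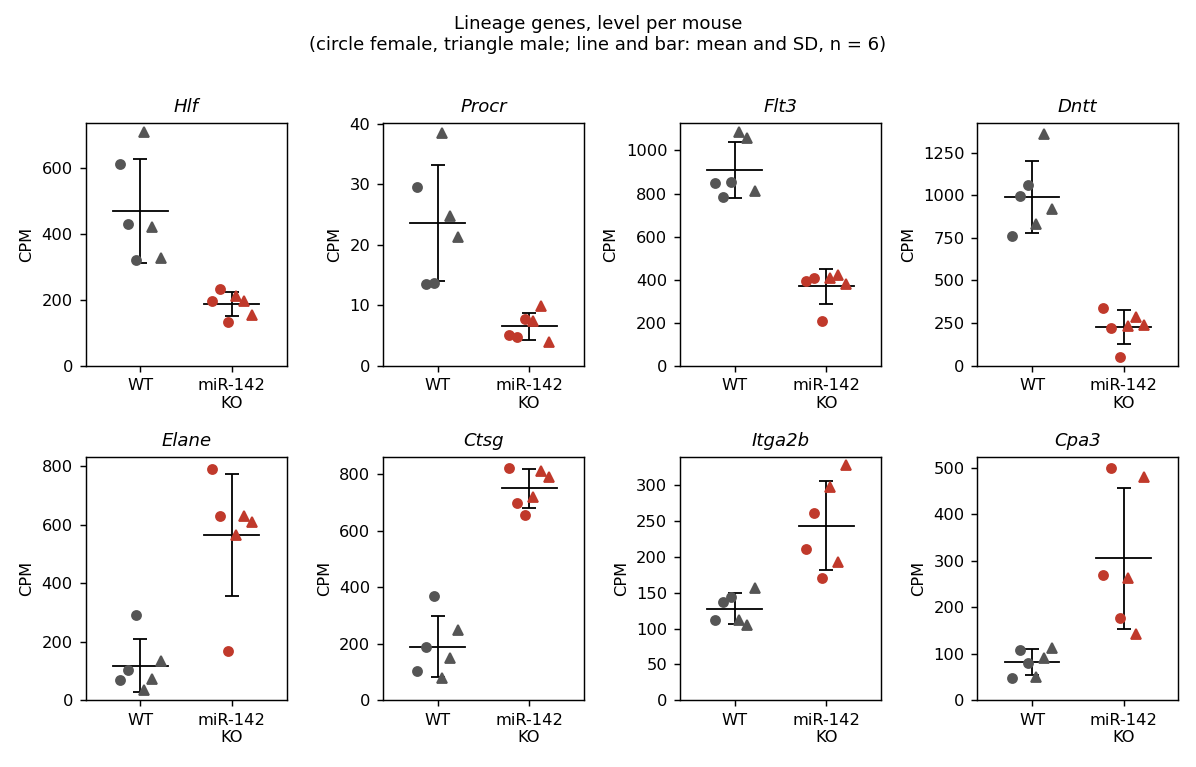
Level in CPM (y axis) of 8 lineage genes in each of 6 WT and 6 miR-142 KO mice; circles are females, triangles males, and the line and bar give the mean and SD. Hlf, Procr, Flt3 and Dntt are lower in every miR-142 KO mouse than in any WT mouse, Ctsg, Itga2b and Cpa3 are higher in every one, and Elane overlaps through a single miR-142 KO mouse at 168 CPM.

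Of 47 transcription factors of stem and lineage programs, 11 rose, 11 fell and 25 did not pass (median 0.051). The shares that rose and fell were 23.4% each, near the 19.9% and 16.4% of all tested genes. Spi1 (PU.1), a regulator of myeloid cells, rose from 85.6 ± 10 to 106 ± 6.95 CPM, and Cebpa, the factor of granulocyte commitment, from 74.5 ± 20.01 to 119 ± 10.3 CPM. Runx1 and Runx3, core binding factors, rose by 0.24 and 0.38 and Ikzf2 (Helios) by 0.54 on the log2 scale. Ikzf1 (Ikaros), which drives lymphoid fates, fell by 0.26, Hoxa9 by 0.60 and Hoxa5 by 0.66. The genes behind the sort and its subsets were checked too, and of 6 such genes 1 rose (16.7%) and 2 (Flt3 and Slamf1) fell (33.3%). The share that rose was near that of all tested genes. Kit had 978 ± 169 and 798 ± 126 CPM and Cd34 1212 ± 70.2 and 1135 ± 83.2 CPM, neither past the threshold, and Ly6a, which encodes Sca-1, rose from 43.5 ± 7.98 to 91.8 ± 39.9 CPM without overlap (adjusted p = 0.000201). Cd48, which together with Slamf1 and Flt3 divides LSKs into stem cell and progenitor subsets, had 147 ± 18.8 and 167 ± 38 CPM (adjusted p = 0.0672).

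Transcripts of cells outside the gate also moved. Of 15 marrow macrophage genes, 13 fell and 0 rose (median −2.41), and the count rested on WT female 3: it was 6 without that mouse, 10 without miR-142 KO female 3, 4 without both (an alternative chosen after the values were seen) and 0 in males alone. The summed level was 105 to 1907 CPM in WT and 18.9 to 137 CPM in miR-142 KO LSKs, with no marker at 0 in all libraries. Without WT female 3, the median was −1.28. With all mice 86.7% of the list fell and 0% rose, against 16.4% and 19.9% of all tested genes. C1qa, a complement subunit made by macrophages, had 3.52, 7.08 and 62.9 CPM in WT and 0.0425, 3.80 and 4.77 CPM in miR-142 KO LSKs, which overlapped, and its adjusted p of 0.0276 was 0.236 without WT female 3 (log2 fold change −1.11), 0.0517 without miR-142 KO female 3 and 0.0579 without miR-142 KO male 6. Hmox1, heme oxygenase, had 9.41, 27.1 and 214 CPM in WT and 1.66, 5.13 and 7.44 CPM in miR-142 KO LSKs, Cd5l, a secreted protein of tissue macrophages, 2.65, 6.62 and 76.3 and 0.0425, 1.24 and 1.51 CPM, and Fcna, a ficolin, 3.38, 8.22 and 92.3 and 0, 2.10 and 2.95 CPM. For each of the 3 genes the highest WT value was that of WT female 3, and even the lowest WT value was above the highest miR-142 KO value. The log2 fold changes of Hmox1, Cd5l and Fcna were −3.46, −4.29 and −3.61, and −2.28, −2.83 and −2.09 without WT female 3. The same mouse had the highest sum of the neutrophil priming list in its group, against the direction of that list's change, and the 12 rising genes of that list became 13 without it. Stromal and endothelial markers had a summed level of 88.9 to 164 CPM in WT and 89.3 to 119.8 CPM in miR-142 KO LSKs, 1 of 8 tested genes fell and 0 rose, and Lepr, Pdgfra, Col3a1 and Bglap were below the filter.

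Several of the genes that rose most are known from group 2 innate lymphoid cells (ILC2s), lymphocytes without antigen receptors that respond to interleukin 33. A list of 20 ILC2 genes was written after these values had been seen, so its count describes the data and supports nothing. Of its 18 tested genes 16 rose and 0 fell, where 19.9% of all tested genes rose and 16.4% fell. The median was 2.86, and 11 did not overlap between the groups on the higher side, which held for 5.59% of all tested genes. Il2ra, the α chain of the interleukin 2 receptor, had 0.318, 1.57 and 7.48 CPM in WT and 20.7, 64.95 and 175 CPM in miR-142 KO LSKs. All 6 miR-142 KO values were above all WT values (log2 fold change 5.22 ± 0.61, adjusted p = 5.75e-07), and the highest WT value was that of female 2. Il1rl1 (ST2), the interleukin 33 receptor of ILC2s and mast cells, had 9.81, 21.3 and 34.9 CPM in WT and 91.3, 166 and 435 CPM in miR-142 KO LSKs (log2 fold change 3.37 ± 0.35, adjusted p = 1.13e-07). Tph1, tryptophan hydroxylase, rose from 0.232 ± 0.185 to 29.2 ± 25.2 CPM, Nmur1, the neuromedin U receptor, from 0.217 ± 0.224 to 5.09 ± 4.12 CPM, Klrg1, an inhibitory lectin, from 0.121 ± 0.172 to 2.23 ± 1.07 CPM and Ccr8, a chemokine receptor, from 0.0670 ± 0.0905 to 2.11 ± 1.32 CPM. Without WT female 2, the log2 fold changes of Il2ra, Nmur1, Klrg1 and Ccr8 went from 5.22, 4.60, 4.24 and 4.95 to 6.14, 5.29, 5.34 and 5.78. The summed level of the list was 129 to 216 CPM in WT and 292 to 1394 CPM in miR-142 KO LSKs, and the 3 highest of the 6 miR-142 KO mice were the females. The 3 females had 735 to 1394 CPM and the 3 males 292 to 422 CPM. Of the other members, the cytokine gene Il5 had 0.0949 ± 0.0923 and 0.257 ± 0.2285 CPM and did not pass (adjusted p = 0.0890). The cytokine gene Il13 rose from 0.09735 ± 0.0848 to 0.403 ± 0.390 CPM. Il7r did not pass either, and Ptgdr2 and Areg were below the filter on low counts. Whether such cells passed the LSK gate was not tested.

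**Figure D4:**
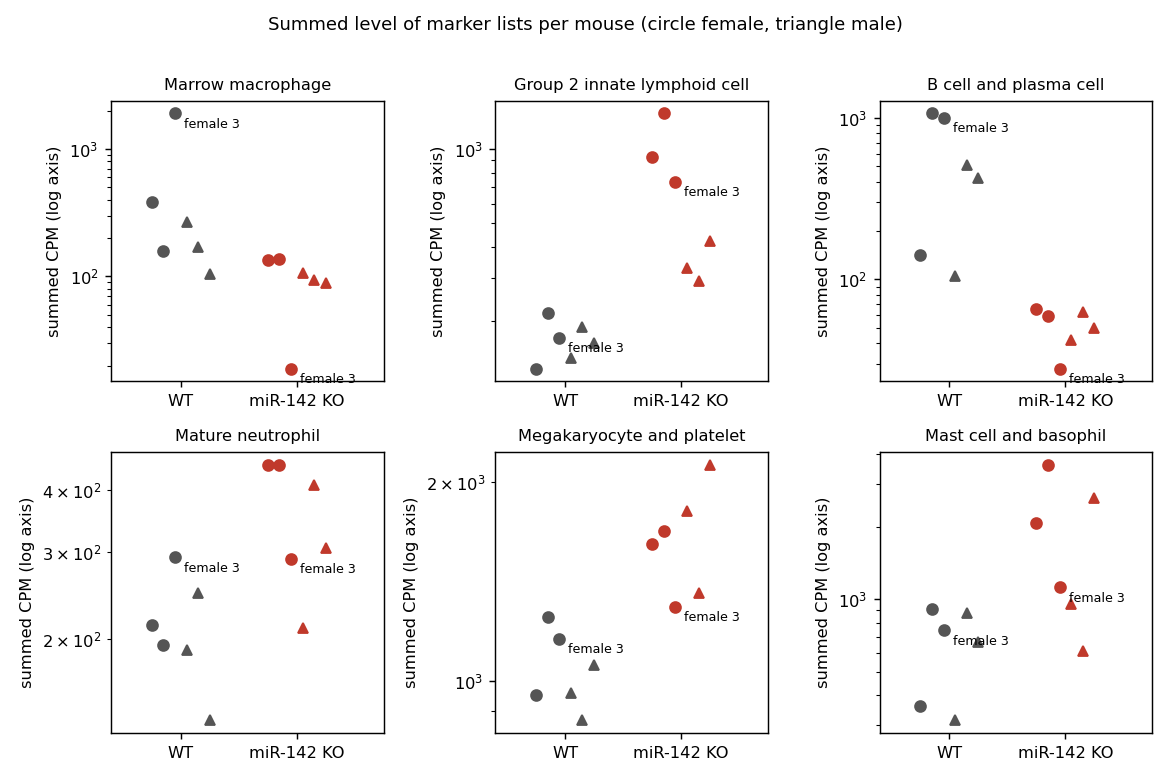
Summed CPM (y axis, log scale) of 6 marker lists in each of 6 WT and 6 miR-142 KO mice; circles are females, triangles males, and female 3 of each group is named. WT female 3 is highest and miR-142 KO female 3 lowest for macrophage markers; the ILC2, megakaryocyte and B lineage sums do not overlap between the groups, and the other 3 do.

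In each of the signalling lists with calls, some members rose and others fell. Of 41 cytokine receptor genes, 18 rose, 4 fell and 19 did not pass (median 0.17). Receptors that rose included Csf2rb, the shared β chain for interleukin 3, interleukin 5 and GM-CSF, from 104 ± 25.7 to 182 ± 55.1 CPM (adjusted p = 0.000646), Ifngr2, a chain of the interferon γ receptor, from 35.9 ± 2.85 to 60.4 ± 8.87 CPM (adjusted p = 5.53e-08) and Tnfrsf1a, a receptor for tumour necrosis factor, from 101 ± 10.1 to 150.3 ± 10.8 CPM (adjusted p = 1.53e-07). For Ifngr2 and Tnfrsf1a the groups did not overlap. Il9r, the interleukin 9 receptor, rose from 0.979 ± 0.498 to 8.48 ± 6.74 CPM. Flt3, Il17ra and Il21r were among those that fell.

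Downstream of the receptors, 5 of 31 JAK-STAT genes rose and 4 fell, 11 of 42 RAS and ERK genes rose and 8 fell, and 11 of 32 PI3K, AKT, mTOR and FOXO genes rose and 6 fell, where 19.9% of all tested genes rose and 16.4% fell. The JAK-STAT and RAS shares are thus near those of all genes, and 3 JAK-STAT genes rose without WT male 6 and 8 without miR-142 KO male 4. The medians of the 3 lists were 0.039, 0.0084 and −0.0009, and under upper quartile scaling all 3 were below 0. Stat5a, the STAT of cytokine receptors, rose by 0.25 on the log2 scale, while Jak2 and Stat3 did not pass (log2 fold changes 0.10 and 0.080) and Socs2, a feedback inhibitor, had a log2 fold change of −0.61 (adjusted p = 0.0760). Among RAS and ERK genes the largest falls were those of Dusp4, a phosphatase induced by ERK, from 6.63 ± 1.84 to 1.36 ± 0.581 CPM, and Rasgrp3, a RAS exchange factor of B cells, from 9.32 ± 1.85 to 2.39 ± 0.838 CPM, neither with any overlap. The exchange factor Rasgrp1 of T cells rose from 2.86 ± 1.98 to 12.4 ± 10.9 CPM. Spry2 and Etv5, feedback and target genes of ERK, fell by 0.61 and 0.72, and Dusp6 had a log2 fold change of −0.43 that did not pass (adjusted p = 0.0517). In the PI3K list, the regulatory subunit gene Pik3r3 rose from 1.48 ± 0.382 to 5.05 ± 1.16 CPM, the catalytic subunit gene Pik3cb by 0.57, the phosphatase gene Inpp4b by 1.78 and Deptor, an inhibitor of mTOR, by 0.76 on the log2 scale. Foxo3, a transcription factor that AKT keeps out of the nucleus, fell by 0.34, and the catalytic subunit gene Pik3cd did not pass (−0.037).

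Of 34 protein kinase C, phospholipase C and calcium genes, 12 rose and 10 fell (median 0.088). Plcb3, a phospholipase C, had 48.2, 52.5 and 60.7 CPM in WT and 83.5, 85.8 and 91.5 CPM in miR-142 KO LSKs without overlap (log2 fold change 0.77 ± 0.064, adjusted p = 3.39e-09). Camk1d, a calcium-dependent kinase, fell from 126 ± 24.1 to 40.3 ± 13.5 CPM and Nfatc2, a calcium-regulated transcription factor, from 62.7 ± 16.4 to 27.6 ± 3.94 CPM, while Stim2, the calcium sensor of the endoplasmic reticulum, rose by 0.45. Prkcq and Plcg2 did not pass (0.18 and 0.12). Of 30 TGF-beta and BMP genes, 10 rose and 6 fell (median 0.13). The type I receptor Tgfbr1 rose from 78.01 ± 6.93 to 123 ± 8.77 CPM, its co-receptor Tgfbr3 fell from 49.1 ± 6.24 to 30.8 ± 6.61 CPM, and the BMP receptor Bmpr1a rose from 1.09 ± 0.307 to 4.15 ± 1.82 CPM. Tgfbr2 and the inhibitor Smad7 did not pass (0.15 and −0.36). Smad3, which carries the receptor's signal to the nucleus, fell by 0.18 with an adjusted p of 0.0205, which rose to 0.0789 without WT male 4 and to 0.0518 and 0.0561 without miR-142 KO male 5 and male 6.

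Of 36 Notch and Wnt genes, 5 rose and 9 fell (median 0.023, and −0.027 under upper quartile scaling). These are 13.9% and 25% of the list, against 19.9% and 16.4% of all tested genes. Notch1 had 253, 317 and 464 CPM in WT and 73.2, 129 and 159 CPM in miR-142 KO LSKs, far apart, with a log2 fold change of −1.33 ± 0.15 (adjusted p = 4.01e-07). The Notch coactivator Maml2 and the glycosyltransferases Lfng and Mfng fell by 0.65, 0.41 and 0.39, and Hes1, a target of Notch, did not pass (0.76, adjusted p = 0.101). Ctnnb1, β-catenin, which serves in Wnt signalling and in adhesion, had 448, 500.3 and 552 CPM in WT and 764, 772 and 835 CPM in miR-142 KO LSKs without overlap (log2 fold change 0.72 ± 0.047, adjusted p = 6.77e-11). Apc, which marks β-catenin for breakdown, rose by 0.37 and Axin2, a target of Wnt, from 2.31 ± 1.11 to 7.89 ± 5.61 CPM, while Tcf7l2, a partner of β-catenin, fell from 31.9 ± 4.45 to 14.2 ± 1.15 CPM.

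Of 39 NF-kB and Toll-like receptor genes, 5 rose (12.8%) and 8 fell (20.5%), with a median of 0.036, and −0.014 under upper quartile scaling. Without WT female 3, 9 rose and 6 fell. The shares of all tested genes were 19.9% and 16.4%. Nfkb1 rose by 0.22 on the log2 scale, Irak3, an inhibitor of Toll-like receptor signalling, by 0.57, and Tlr4 and its partner Ly96 fell by 0.50 and 0.97. Tnfaip3 (A20) had 25.5 to 114 CPM in WT and 29.5 to 399.5 CPM in miR-142 KO LSKs and did not pass (adjusted p = 0.0566). Of 26 interferon response genes, 2 rose, 1 fell and 23 did not pass (median 0.083), a share below the 19.9% and 16.4% of all genes. Irf7 and Ifit1 had log2 fold changes of 0.57 and 0.055. Of 15 immediate early genes, 0 passed the threshold in edgeR, 0 at an unadjusted p below 0.05 and 0 in DESeq2 (median 0.24). In females alone 2 rose (median 0.97), and in males alone 1 fell (median −0.58). Fos ranged from 309 to 1396 CPM in WT and 228 to 1844 CPM in miR-142 KO LSKs and Egr1 from 249.8 to 1480 and 229 to 1491 CPM.

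Of 48 tested genes of actin and the small GTPases that control it, 15 rose and 6 fell (median 0.037, and −0.014 under upper quartile scaling). The described targets Cfl2, Wasl, Twf1 and Rac1 were among those that rose, as were Tiam1, an exchange factor for Rac, by 0.47 and Gas7, an actin-binding protein, by 1.58 on the log2 scale. Arhgap18, a RhoA inactivating protein, Arhgef6, a Rac and Cdc42 exchange factor, Ssh2, a phosphatase that activates cofilin, and Vav3, an exchange factor, fell by 0.45, 0.21, 0.33 and 0.20, each without overlap. Rhoa had 186 ± 5.09 and 188 ± 6.97 CPM (adjusted p = 0.0715).

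Integrins are the receptors for matrix and for other cells. Of 25 tested integrin genes, 12 rose (48%), 5 fell (20%) and 8 did not pass (median 0.43). Of all tested genes 19.9% rose and 16.4% fell, so the share that fell was near that of all genes. Without WT female 3, 14 rose and 3 fell. The summed level of all 27 integrin genes in the table was 1938 to 2375 CPM in WT and 2579 to 2894 CPM in miR-142 KO LSKs, without overlap. Itga6, the α6 subunit of laminin receptors on stem cells, had 173, 204 and 222 CPM in WT and 261, 308 and 354 CPM in miR-142 KO LSKs (log2 fold change 0.65 ± 0.077, adjusted p = 7.56e-07). Itga5, of the fibronectin receptor, rose by 0.43, its partner Itgb1 by 0.25 and Itgb7, of the gut homing receptor, by 1.25 on the log2 scale. Itga4, of the VCAM-1 receptor, rose by 0.22 with an adjusted p of 0.0208, which was 0.0561 without WT female 1. Itga9, of receptors for osteopontin and tenascin, fell from 30.1 ± 7.87 to 12.4 ± 3.68 CPM and Itgb5, a partner of αV, from 30.6 ± 8.73 to 14.9 ± 3.92 CPM. The αV subunit and its platelet partner β3 thus rose, while its partner β5 fell. Itgal, of LFA-1, did not pass (0.26, adjusted p = 0.0515).

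Among adaptors and kinases that link integrins to actin, 10 of 34 rose and 3 fell (median 0.062). The shares were 29.4% and 8.82%, against 19.9% and 16.4% of all tested genes. Tln1 and Fermt3 (talin and kindlin-3), which switch integrins on, rose by 0.31 and 0.27, and Crk, an adaptor of focal adhesions, from 147 ± 13.7 to 203 ± 16.8 CPM without overlap, while Ptk2 (focal adhesion kinase) fell from 13.7 ± 1.86 to 7.61 ± 1.26 CPM, also without overlap.

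Of 17 selectins, sialomucins and genes of their glycosylation, 10 rose (58.8%) and 3 fell (17.65%), with a median of 0.22. Of all tested genes 19.9% rose and 16.4% fell, so the share that fell was near that of all genes. Gcnt1, which builds the core 2 glycans of selectin ligands, had 76.9, 82.4 and 85.6 CPM in WT and 125, 128 and 133 CPM in miR-142 KO LSKs. The groups were well separated, with a log2 fold change of 0.73 ± 0.051 (adjusted p = 2.07e-10). Gcnt2, which builds branches on other glycans, fell from 473 ± 91.97 to 230.1 ± 18.8 CPM (adjusted p = 7.83e-07). Emcn, endomucin, an adhesion-blocking sialomucin of stem cells and endothelium, had 24.5, 28.4 and 37.3 CPM in WT and 1.95, 2.66 and 4.98 CPM in miR-142 KO LSKs, again without overlap (log2 fold change −3.17 ± 0.25, adjusted p = 1.49e-09). Spn (CD43) rose by 0.37 and Selplg, the P-selectin ligand, by 0.32 on the log2 scale. Cd44, the hyaluronan receptor, had 406 ± 30.6 and 383 ± 23.4 CPM (adjusted p = 0.865).

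Of 34 tested adhesion genes of the immunoglobulin superfamily, 9 rose and 11 fell (median −0.18). These are 26.47% and 32.35% of the list, against 19.9% and 16.4% of all tested genes. Members of the Robo family of guidance receptors went opposite ways: Robo4 had 31.6, 34.8 and 48.4 CPM in WT and 8.20, 16.6 and 17.3 CPM in miR-142 KO LSKs, without overlap, and Robo3 rose from 6.64 ± 1.59 to 23.8 ± 8.92 CPM. Bcam, a laminin receptor, fell from 6.51 ± 2.19 to 1.42 ± 0.578 CPM, Cd200, an inhibitory ligand, from 7.68 ± 1.85 to 1.95 ± 0.880 CPM, while its receptor Cd200r1 rose from 15.2 ± 0.938 to 24.9 ± 4.91 CPM. Pecam1 and Cd47 rose by 0.42 and 0.23, Icam1 fell by 0.25, and Jam3 fell by 0.75 with an adjusted p of 0.0154 that was 0.0521 without WT female 1 and 0.0576 without WT male 4.

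Among 21 tested cadherins, catenins and adhesion GPCRs, 9 rose and 5 fell (median 0.30), and 3 fell without miR-142 KO female 2. With all mice 42.9% rose and 23.8% fell, against 19.9% and 16.4% of all tested genes. Besides Ctnnb1, the desmosome genes Dsp (desmoplakin) and Perp rose from 1.86 ± 0.227 to 9.61 ± 3.03 CPM and from 3.56 ± 1.14 to 16.5 ± 6.28 CPM, while Dsg2, a desmosomal cadherin, fell from 2.79 ± 0.929 to 0.675 ± 0.293 CPM, all without overlap. Ctnnd1 (p120 catenin) rose by 0.47 and the latrophilin Adgrl1 by 0.56. Cdh1 (E-cadherin) was variable, with 1.54 to 21.4 CPM in WT and 5.18 to 86.3 CPM in miR-142 KO LSKs; its adjusted p of 0.0284 was between 0.0501 and 0.093 without WT female 1, WT male 4, or miR-142 KO female 1, female 2 or male 6. Adgrg1 (GPR56), a receptor of stem cells, had 1612 ± 141 and 1557 ± 187 CPM and Ctnna1 136 ± 6.74 and 139 ± 18.4 CPM, neither past the threshold. Cdh2 (N-cadherin) was under 2 CPM in every library and fell from 0.692 ± 0.666 to 0.102 ± 0.107 CPM (log2 fold change −2.64, and −1.98 without WT female 2, adjusted p = 0.00286).

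Of 20 tested tetraspanins, which organize integrins in the membrane, 4 rose and 6 fell (median −0.042). These are 20% and 30% of the list, against 19.9% and 16.4% of all tested genes. Cd151, a partner of laminin-binding integrins, had 24.4, 26.7 and 32.9 CPM in WT and 60.9, 63.8 and 67.7 CPM in miR-142 KO LSKs without overlap (log2 fold change 1.29 ± 0.069, adjusted p = 1.62e-12). Cd63 rose from 38.95 ± 7.45 to 83.2 ± 8.84 CPM, and Tspan6 and Tspan13 fell by 1.42 and 0.66 and Cd81 by 0.26 on the log2 scale.

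Of 22 tested homing and chemoattractant receptors, 10 rose (45.45%) and 4 fell (18.2%), with a median of 0.81. Of all tested genes 19.9% rose and 16.4% fell, so the share that fell was near that of all genes. Receptors for sphingosine 1-phosphate, a lipid that guides cells out of tissues, changed in both directions. S1pr1 had 17.2, 18.98 and 24.2 CPM in WT and 9.01, 10.1 and 12.3 CPM in miR-142 KO LSKs, S1pr3 had 18.6, 21.97 and 26.1 and 46.3, 53.8 and 72.3 CPM, and neither overlapped (log2 fold changes −0.85 and 1.43, adjusted p = 1.40e-05 and 2.96e-09). S1pr2 rose by 0.55. Cxcr4, the receptor that retains stem cells in the marrow, had 126 ± 13.8 and 127 ± 23.8 CPM (log2 fold change 0.073, adjusted p = 0.692). Ltb4r1, the leukotriene B4 receptor, rose from 7.01 ± 2.54 to 14.7 ± 3.58 CPM, while Ccr7, of lymph node homing, fell from 4.13 ± 0.953 to 1.07 ± 0.586 CPM and Ptger2, a prostaglandin E2 receptor, from 8.86 ± 2.95 to 2.81 ± 1.20 CPM. Gpr183 did not pass (adjusted p = 0.0758).

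Of 24 tested ephrin, semaphorin and plexin genes, 4 rose and 5 fell (median −0.28), and 2 rose without WT female 2 or miR-142 KO female 1. With all mice the shares were 16.7% and 20.8%, near the 19.9% and 16.4% of all tested genes. Sema7a, a ligand of β1 integrins, fell from 10.2 ± 2.28 to 4.23 ± 0.466 CPM and Ephb2 from 24.2 ± 5.02 to 10.7 ± 3.46 CPM. Ephb4 and Plxnd1 did not pass (−0.22 and 0.13). Of 25 tested genes of matrix, galectins and matrix proteases, 9 rose (36%) and 2 fell (8%), with a median of 0.37, against 19.9% and 16.4% of all tested genes. In this list 14 rose without WT female 3 and 4 fell without miR-142 KO female 3. Lamc1, a laminin chain, rose from 35.6 ± 3.85 to 58.9 ± 4.98 CPM, Adam15 from 52.4 ± 3.02 to 84.5 ± 3.96 CPM and Ecm1 from 5.80 ± 0.671 to 16.7 ± 7.24 CPM, each without overlap, and the metalloprotease genes Mmp14 and Mmp2 went from 9.87 ± 1.65 to 13.97 ± 2.24 CPM and from 20.4 ± 6.77 to 6.39 ± 1.34 CPM. Thbs1 did not pass (−1.75, adjusted p = 0.0705), and the adjusted p of 0.0385 for galectin 1 (Lgals1, log2 fold change 0.58) was between 0.0538 and 0.16 when WT female 1, WT female 2, WT male 4, miR-142 KO female 1 or miR-142 KO female 3 was left out.

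**Figure D5:**
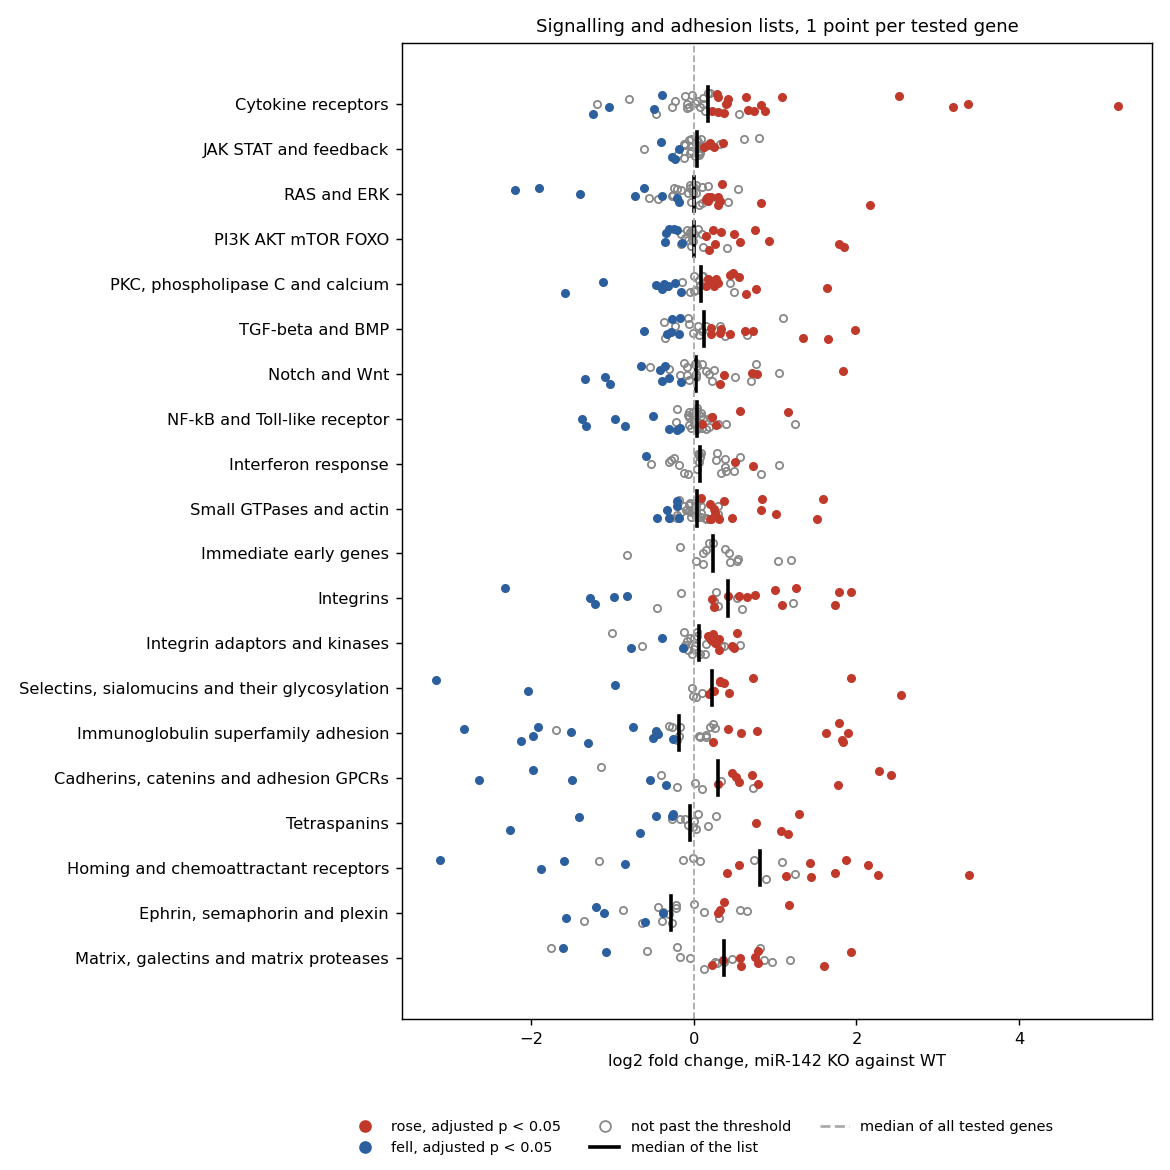
Log2 fold change (x axis) of every tested gene of each signalling and adhesion list, 1 point per gene: filled points rose (red) or fell (blue) at an adjusted p below 0.05, open points did not pass, the bar is the median of the list and the dashed line that of all tested genes. The signalling medians lie between −0.00090 and 0.24, and those of the homing, integrin and matrix lists lie at 0.81, 0.43 and 0.37.

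Of 20 S phase genes, 0 rose and 1 fell (median −0.0042), and of 20 mitosis genes, 4 rose and 1 fell (median 0.18), against 19.9% and 16.4% of all tested genes. Pcna and Mcm2, of DNA replication, had log2 fold changes of −0.13 and 0.037, and Mki67 and Ccnb1, of dividing cells, of 0.12 and 0.28, and none of these 4 passed. Mki67 had 1575 ± 189.9 and 1634 ± 72.01 CPM. The mitosis count rested on single mice, with 1 gene that rose without WT female 1 or WT male 4, 7 without miR-142 KO male 5, 8 without WT female 2 and 9 without WT female 3.

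The effect of miR-142 loss was compared between sexes in a fit with 8 means, 1 for each group and sex. Of 13914 tested genes, 1 differed between males and females at an adjusted p below 0.05 (1067 at an unadjusted p below 0.05, and 33 by the likelihood ratio test of edgeR at an adjusted p below 0.05). This was Fam102a, an estrogen-regulated gene, with log2 fold changes of 1.16 in females and −0.12 in males (difference −1.28, adjusted p = 0.00567), and with the 12 libraries alone 0 genes passed at an adjusted p below 0.05 and 715 at an unadjusted p below 0.05. The next smallest p-values were those of Zap70, a T cell receptor kinase, Hesx1, Ppp1r16b and Rora, a transcription factor of ILC2s, with log2 fold changes in females and males of 2.04 and −0.31, 1.08 and −1.78, 0.083 and −1.51, and 1.45 and −0.29. Their adjusted p was 0.152 for the difference.

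The same deletion was also present in the mice with BCR-ABL, and the comparison of BC CML with CP CML LSKs, which shares no mouse with that of miR-142 KO with WT, called 20.4% of genes higher and 17.6% lower. The difference between both effects passed the threshold for 539 genes (3.99%). The smallest p-values belonged to Ptprv, Ctse, Ptprg, Arl3 and Homer2. Ptprv, a tyrosine phosphatase, had 15.9 ± 1.54 and 15.6 ± 1.70 CPM in WT and miR-142 KO LSKs and 31.7 ± 2.505 and 11.3 ± 0.962 CPM in CP CML and BC CML LSKs (difference of log2 fold changes 1.46, adjusted p = 1.08e-08). Ctse, cathepsin E, fell without BCR-ABL by 0.94 and with it had a log2 fold change of −2.92 (difference 1.98, adjusted p = 6.56e-07). Homer2, a scaffold protein, had log2 fold changes of 2.67 and 0.45 (difference 2.22), Arl3, a GTPase of the cilium, of −0.069 and 0.93 (difference −1.0) and Ptprg, a tyrosine phosphatase at 0.317 ± 0.0858, 0.216 ± 0.0940, 0.466 ± 0.207 and 15.2 ± 6.64 CPM in the groups in the same order, of −0.48 and 5.11 (difference −5.59).

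Among the lineage genes, those with a difference included Dntt and Rag2 of the lymphoid list and Ms4a3 and Hp of the neutrophil priming list. Dntt had log2 fold changes of −2.06 without BCR-ABL and −0.54 with it (adjusted p of the difference 0.0440), and Rag2 of −1.56 and 0.43 (adjusted p 0.00511). Ms4a3 had 2.15 and 0.69 (adjusted p 0.0378) and Hp 2.62 and 0.78 (adjusted p 0.0206). Cxcr2 and Lcn2, of the mature neutrophil list, had 2.27 and 1.30, and 2.95 and 0.77 (adjusted p of the difference 0.0243 and 0.0214). Of the platelet genes, the difference passed for 3, among them Itga2b (0.995 and 0.14, adjusted p 0.0199) and Itgb3 (1.74 and 0.49, adjusted p 0.0133). Flt3 had −1.24 and −1.23 and Hlf −1.26 and −1.03, with adjusted p of 0.992 and 0.664 for the difference. The 19 stem cell genes held 0 with a difference, which is near the 3.99% of all tested genes for a list of this size. Of the ILC2 genes, Tph1 and Il1rl1 had 7.03 and 0.99, and 3.37 and 1.10 (adjusted p of the difference 0.000371 and 0.00591), whereas Gata3 had 1.89 and 2.15 (adjusted p 0.780). In adhesion, Dsp and Lamc1 had 2.43 and 0.83, and 0.80 and 0.19 (adjusted p of the difference 0.00133 and 0.00348). Of the described targets the difference passed for Cfl2, Prkca and Cpt1a. Itgav had 1.08 and 1.23 and Cfl2 1.51 and 2.04, with adjusted p of 0.342 and 0.0329 for the difference. Prkca had 0.49 and −0.025 and Cpt1a 0.0098 and −0.44, with adjusted p of 0.0256 and 0.0345 for the difference.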

How the data were processed

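LSKs were sorted from bone marrow of single mice, and polyadenylated RNA was sequenced as paired reads. Per the study's methods, reads were trimmed with Trimmomatic and FASTP and aligned to mm10 with STAR 2.6.0. The deposited values are raw counts per gene made by the authors with HTSeq 0.11.1, with 1 column per mouse. The gene annotation and the strand setting of the counting were not given in the sources used here, and the methods state fewer mice per group than the 6 in the table.

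The counts were analysed with edgeR 4.0.16 (quasi-likelihood test, TMM scaling, filterByExpr over 4 groups) in R 4.3.3, with group means of all 24 libraries in 1 fit, which then share 1 estimate of the spread, and the contrast miR-142 KO minus WT. The difference of this contrast from BC CML minus CP CML was taken from the same fit, and the difference between sexes from a fit with 8 means. Adjusted p is that of Benjamini and Hochberg over all tested genes, with a threshold of 0.05. Levels are CPM of the raw library total without TMM scaling, given as mean ± SD (n = 6). Totals of at least 21665505 counts per library put the 3 counts that a count of 0 allows at 0.1385 CPM or less. The steps were tested on simulated counts.

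The members and gene lists were chosen with earlier results of these data known. By rule, the text names Mir142 and its neighbours, the 15 genes that rose and the 15 that fell most among called genes with proper names, a mean of at least 1 CPM over the 12 libraries and no overlap of the groups, set members of each list whatever they did, up to 6 members per list and direction with the smallest p, and the 5 genes with the smallest p in each difference test. The ILC2 list was added after the values were seen, and some genes that the rule names are not reported here. 3′ UTRs and gene positions are from GENCODE vM21 on mm10, which may differ from the annotation behind the counts. Alternatives were the likelihood ratio test, DESeq2 1.42.0, other scalings and filters, sex as a covariate, single sexes, the 12 libraries alone, a limit on fold and leaving out each mouse, and, chosen after the values were seen, leaving out both mice named as standing apart.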

Additional observations from a re-analysis of the deposited data

Results flagged for a closer look

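For 61 genes, the gap between the highest or lowest mouse and its nearest neighbour was compared with the range of its group of 6. Groups with 0 CPM in all 6 mice gave no share. In 20 of the group values that share was above the value that chance exceeds in about 1 of 20 groups. miR-142 KO female 3 was highest of its group for Igf2bp3 (23.6 CPM, next 11.9 CPM, share 0.691), Ctnnb1 (835 CPM, next 787 CPM, share 0.682) and Itgav (91.3 CPM, next 88.7 CPM, share 0.633). miR-142 KO female 3 was lowest of its group for Elane (168 CPM, next 564 CPM, share 0.636), Flt3 (205 CPM, next 381 CPM, share 0.821), Mpo (1342 CPM, next 4462 CPM, share 0.825) and Rag2 (2.34 CPM, next 7.61 CPM, share 0.744). WT female 2 was highest of its group for Moxd1 (0.0462 CPM, next 0 CPM, share 1), Il2ra (7.48 CPM, next 1.83 CPM, share 0.789), Flrt2 (0.692 CPM, next 0.318 CPM, share 0.674), Nmur1 (0.646 CPM, next 0.218 CPM, share 0.711), Klrg1 (0.462 CPM, next 0.131 CPM, share 0.717) and Evc (3.23 CPM, next 1.91 CPM, share 0.658). WT female 3 was highest of its group for Cd5l (76.3 CPM, next 14.04 CPM, share 0.846), Chp2 (6.51 CPM, next 1.82 CPM, share 0.811), Fcna (92.3 CPM, next 14.1 CPM, share 0.879), Hmox1 (214 CPM, next 47.7 CPM, share 0.812) and Mpo (3887 CPM, next 2134 CPM, share 0.626). WT male 4 was highest of its group for Skida1 (0.863 CPM, next 0.436 CPM, share 0.675). WT male 6 was highest of its group for Bod1 (26.1 CPM, next 22.7 CPM, share 0.783). The 2 mice named for macrophage markers, WT female 3 and miR-142 KO female 3, hold 12 of the 20 values, and WT female 2 holds 6.

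The effect of miR-142 loss differed with and without BCR-ABL at an edgeR adjusted p below 0.05 for 46 of the 255 genes named in the text. It did so for 3.99% of all tested genes. The named genes include 5 chosen by the smallest p in this same test, and many were chosen by their change without BCR-ABL. The log2 fold change without BCR-ABL was higher than that with it by 1.46 for Ptprv, 1.98 for Ctse, 2.22 for Homer2, 1.02 for Tspoap1, 4.25 for Moxd1, 6.04 for Tph1, 2.28 for Rnf128, 0.97 for Cxcr2, 1.59 for Dsp, 1.84 for Hp, 2.27 for Il1rl1, 0.85 for Itga2b, 1.25 for Itgb3, 0.60 for Lamc1, 2.18 for Lcn2, 1.46 for Ms4a3, 0.71 for Adgrl1, 0.45 for Cpt1a, 0.87 for Deptor, 3.91 for Epx, 0.26 for Fermt3, 0.64 for Gata2, 2.42 for Il9r, 1.33 for Inpp4b, 0.47 for Irak3, 1.04 for Mmp14, 1.10 for Pglyrp1, 0.33 for Plcg2, 0.51 for Prkca, 1.53 for Robo3, 0.30 for Runx3 and 3.01 for S100a9. The difference (without minus with BCR-ABL) was −5.59 for Ptprg, −1.0 for Arl3, −0.53 for Cfl2, −1.53 for Dntt, −1.996 for Rag2, −0.33 for Arhgap18, −1.66 for Bank1, −3.37 for Cdh2, −0.36 for Crk, −1.24 for Ecm1, −0.56 for Hoxa9, −0.69 for Il21r, −0.69 for Tlr4 and −0.45 for Tspan13. Between sexes, the effect of miR-142 loss on Fam102a differed by −1.28 (males minus females) on the log2 scale. Moxd1 and Tph1 were near 0 CPM in WT LSKs, so that their differences depend on how low counts are handled.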

How the results depend on the processing

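The number of genes called in miR-142 KO against WT LSKs (4907) stayed within 1.5 times of itself under the other tests, scalings, filters and sample sets (3757 with the 12 libraries alone), and was between 4246 and 5062 when single mice were left out. It was 1054 with an absolute log2 fold change of at least 1 required, 3100 in females and 2843 in males. The difference with and without BCR-ABL passed for 891 genes by DESeq2, in place of 539. The difference between sexes passed for 33 genes by the likelihood ratio test and for 0 with the 12 libraries alone, at an adjusted p below 0.05, where edgeR had 715 at an unadjusted p below 0.05.

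With the limit on fold, 7 stem cell genes fell, 6 megakaryocyte genes, 5 cytokine receptors, 5 integrins, 4 described targets and 51 genes with a 3p site rose, by construction fewer than without it. In males alone 7 stem cell genes fell, 10 cytokine receptors, 5 mast cell genes and 2 T and NK cell genes rose and 0 macrophage genes fell. In females alone 6 megakaryocyte and 5 mast cell genes rose. These splits hold fewer mice per group. The macrophage count was between 6 (without WT female 3) and 15 with 1 mouse left out, and 4 without WT female 3 and miR-142 KO female 3 together.

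Of 255 genes named in the text, 200 were called, 4 of these (Fam102a, Ppp1r16b, Rora and Zap70) changed sign in a single sex and none did under the other alternatives run, and 188 kept the call whichever single mouse was left out. The other genes that changed sign had not passed the threshold. Under upper quartile scaling the log2 fold change was −0.031 for Adgrg1, −0.041 for Cpt1a, −0.015 for Mcm2, −0.029 for Mecom, −0.036 for Mks1 and −0.0079 for Ptprv. In females alone it was −0.072 for Adgrg1, −0.053 for Cxcr4, 0.059 for Ebf1, 0.063 for Ephb4, 1.08 for Hesx1, 0.44 for Il7r, −0.22 for Irf8, 0.083 for Ppp1r16b and 0.12 for Smad7. In males alone it was −0.11 for Cpt1a, −0.079 for Ctnna1, −0.97 for Egr1, 0.10 for Epor, −0.12 for Fam102a, −0.36 for Fos, −0.51 for Hes1, −0.16 for Ifit1, 0.10 for Klf1, −0.022 for Mcm2, −0.080 for Mecom, −0.064 for Mks1, 0.0013 for Mtmr4, −0.060 for Ptprv, −0.29 for Rora, 0.83 for Thbs1, −0.33 for Tnfaip3 and −0.31 for Zap70. Without WT female 3 and miR-142 KO female 3 together it was 0.0083 for Cd44, −0.0034 for Cpt1a, −0.032 for Mcm2 and −0.048 for Mecom. With each of the 12 mice left out in turn it ranged from −0.029 to 0.064 for Adgrg1, from −0.040 to 0.013 for Cd34, from −0.039 to 0.031 for Cd44, from −0.052 to 0.064 for Cpt1a, from −0.56 to 0.15 for Ebf1, from −0.12 to 0.37 for Egr1, from −0.27 to 0.31 for Ifit1, from −0.36 to 0.10 for Il7r, from −0.13 to 0.43 for Irf8, from −0.034 to 0.076 for Mcm2, from −0.045 to 0.14 for Mecom, from −0.019 to 0.069 for Mks1 and from −0.058 to 0.010 for Pik3cd. The cause was not tested.

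No paired analysis was possible because the labels pair no WT mouse with a miR-142 KO mouse: the replicate numbers only name the mice. With 6 mice per group, changes of low transcripts rest on few reads, and a count of 0 allows up to 3 counts per library. List counts of 0 to 2 genes moved by 1 or 2 genes when single mice were left out, besides those given in the report. Upper quartile scaling shifted the median of all genes by less than 0.1 on the log2 scale. An alternative with the 2 mice that stand apart left out was chosen after seeing the data, and lists and members were picked with results known, so that their counts describe these mice.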
